A study of Mus musculus with 3 samples.

Results

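The genes described here encode the PGC-1 coactivators and the nuclear receptors they work with. They are 9 genes: Ppargc1a (PGC-1α), Ppargc1b (PGC-1β), Ppara, Ppard, Pparg, Rxra, Esrra, Esrrg and Nrip1 (the corepressor RIP140). Probe sets were assigned to them by gene symbol alone. Every probe set whose annotation holds exactly 1 of these symbols was taken, which gave 26 of the 45101 probe sets on the array. The 9 genes stand among 18194 with a probe set of a single symbol. The main reading was confined to probe sets that reached a signal of 100 on any array. By that rule 15 probe sets of 7 genes were kept, of 6896 genes read in all, whereas Ppard and Esrrg had none. The dimmest kept probe set, that of Rxra, had a highest signal of 118.0, and the brightest one left out, a second probe set of Esrra, had a highest signal of 68.3. A further probe set shared by Ppard and another gene, with signals of 18.4, 12.9 and 24.2 at 0, 1 and 2 h, was not used.

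PPARs are nuclear receptors for fatty acids and their derivatives, and bind DNA as heterodimers with RXR. PPARγ drives adipocyte differentiation, PPARα and PPARδ drive fatty acid oxidation, and the orphan receptors ERRα and ERRγ drive genes of mitochondrial energy metabolism. PGC-1α and PGC-1β bind these receptors and raise their transcriptional activity, and RIP140 binds the same receptors and represses. In brown fat, β-adrenergic signalling through cAMP and PKA is known to induce Ppargc1a, and the receptor and coactivator complexes control Ucp1 and mitochondrial genes.

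The arrays measured total RNA of iBATs, an immortalized brown adipocyte line made from the interscapular brown fat of C57BL/6 mice at P3 with the SV40 large T antigen. The cells were differentiated with insulin and indomethacin, which can itself activate PPARγ. Indomethacin was given only at the start of differentiation, and the medium after that held insulin without it. All 3 samples were taken on day 8, at 0, 1 or 2 h of isoproterenol (ISO), an agonist of all β-adrenergic receptors. ISO was used at 1 μM according to a legend of the paper. There was 1 array per time point. The series was made to find the genes that ISO induces. The 0 h array is the only reference, and no array of cells kept without ISO for 1 or 2 h was analysed here, so the drug and the time in culture cannot be told apart. The line is a single immortalized culture. In such bulk RNA, fewer cells that express a gene and less RNA per cell cannot be told apart either.

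Adipocyte and brown adipocyte markers were present, with 4 of 4 and 5 of 5 measured markers read. Prdm16, a regulator of brown fat identity, was near the limit, at signals of 107.5, 77.5 and 69.3. None of 5 macrophage and leukocyte, 4 endothelial and 5 muscle markers reached 100 on any array, with 93.2 for Cd14 as the highest. Summed signals of the macrophage and leukocyte markers were 123.2, 120.3 and 200.3 at 0, 1 and 2 h. Of the preadipocyte and fibroblast markers 4 of 5 measured were read, with summed signals of 5131.3, 5541.5 and 5009.5. The part of such cells in the results below was not tested. The value of a probe set is its MAS5 signal, an intensity on a linear scale. Where a gene had several kept probe sets, the one with the brightest mean signal, here called the main probe set, stood for it, and its signal was divided by that at 0 h. Genes were called higher or lower from a log2 difference of 0.8 on, the threshold of the study, which without replicates is a size and not a test. The number of arrays limits the precision and no p-value is given. As a scale for size, the spread of log2 ratios among all genes of similar signal (20 bins) was taken from the arrays. Over all genes it was 0.17 at 1 h and 0.24 at 2 h, around medians of -0.02 and -0.07, and it holds real change as well as noise.

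Of the 7 genes read, Ppargc1a, Ppargc1b and Ppara were higher at 2 h than at 0 h by at least 0.8 on the log2 scale, and none was lower. Over all 6896 genes, 2.73% were higher and 0.812% lower. At 1 h none of the 7 was past the threshold in either direction by its main probe set, where 1.58% of all genes were higher and 0.218% lower. In the second hour alone, 2 h over 1 h, Ppargc1a was higher and none was lower, against 0.667% and 0.319% of all genes. Ppargc1a was thus the 1 gene of the 7 that was higher at 2 h than on both earlier arrays by that threshold, as were 0.595% of all genes. By their main probe sets all 3 genes higher at 2 h were thus past the threshold at 2 h and not at 1 h, a course that 1.35% of all genes had. For Ppargc1a this depends on the choice of probe set, since 2 of its 5 probe sets were past the threshold at 1 h. The paper, with the same threshold, names Ppargc1a among the genes induced at 1 h. For Ppara the step from 1 h to 2 h was 0.7 times the spread of genes of like signal. Ppargc1a and Ppara were close below the threshold at 1 h, and both passed it there when the arrays were scaled to the same median signal, with log2 ratios of 0.83 and 0.85. The main probe sets of all 7 genes were at 100 or above on all 3 arrays, so none entered the reading through the array on which it was high. The median log2 ratio of the 7 genes was 0.21 at 1 h and 0.66 at 2 h. With so few genes the median at 2 h is the value of a single gene, Pparg.

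**Figure D1:**
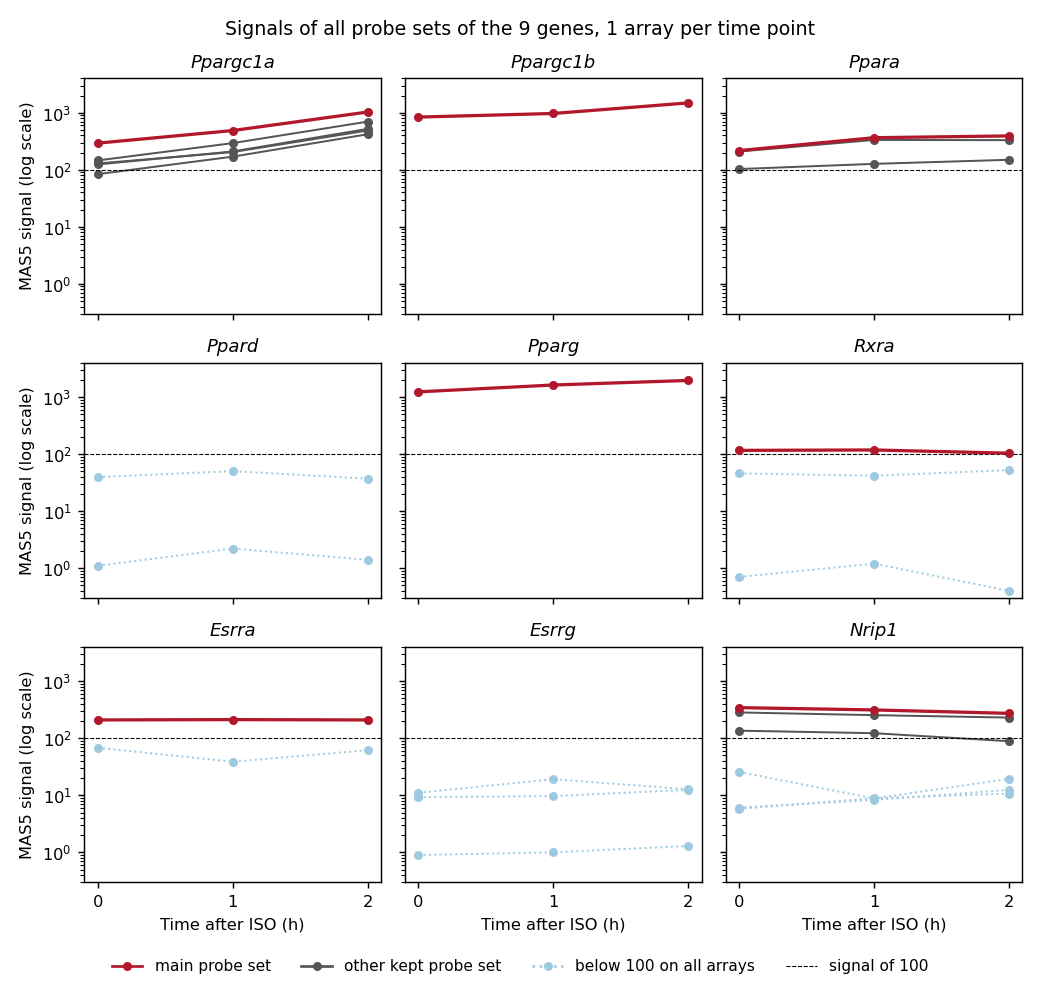
Time in ISO (horizontal axis, h) and MAS5 signal (vertical axis, logarithmic) of all 26 probe sets of the 9 genes, without error bars since each time has 1 array. Red lines are main probe sets, dark grey lines other kept probe sets and dotted blue lines probe sets below 100 on all arrays; the 5 lines of Ppargc1a all climb, and those of Ppard and Esrrg stay below 100.

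Ppargc1a encodes PGC-1α, a coactivator that cold and β-adrenergic stimulation are known to induce in brown fat. Its main probe set (1460336_at) read 293.4 without ISO, 487.6 after 1 h and 1029.9 after 2 h. Each array was thus above the one before, and the gene was 1.66-fold of its starting level at 1 h and 3.51-fold at 2 h. The log2 ratio was 0.73 at 1 h, 1.81 at 2 h and 1.08 for 2 h over 1 h. These are 5.8, 9.4 and 7.4 times the spread of genes of like signal. Among the 6896 genes the ratio ranked 119 from the top at 1 h, 50 at 2 h and 23 for the second hour.

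The gene has 5 probe sets on the array, all kept, which is the largest number kept for any of the 9 genes. The others read 146.0, 293.6 and 698.8 (1456395_at), 124.2, 209.5 and 521.6 (1434099_at), 129.0, 204.5 and 488.7 (1434100_x_at) and 83.9, 169.9 and 419.9 (1437751_at) at 0, 1 and 2 h. In every one the signal was higher at 1 h than at 0 h and higher again at 2 h. Log2 ratios ran from 0.66 to 1.02 at 1 h, where 2 of the 5 were past the threshold, and from 1.81 to 2.32 at 2 h, where all 5 were. The dimmest probe set, 1437751_at, was below the signal limit at 0 h, at 83.9, and was kept through the later arrays alone. That probe set gave the upper end of both ranges and 1 of the 2 calls at 1 h. The main probe set had the smallest log2 ratio of the 5 at 2 h, 1.81 against 2.32 for the dimmest, so the choice of the brightest probe set gave the lowest estimate. On the log2 scale between 55.4% and 65.4% of the rise at 2 h fell in the second hour. The probe sets are 5 readings of the same 3 RNA samples and not replicates, and 1434099_at and 1434100_x_at were designed from the same transcript record.

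The start regions of the genes were searched for the sites of the factors named above. Sequences were RefSeq promoters of GRCm38.p6, each from 250 bases before to 50 after a start site, and 8 of the 9 genes matched, with 15 start sites. The full cAMP response element, TGACGTCA, was in none of the 15 and in 1.79% of all 32851 promoters. Its short core TGACG, which is part of the full site, was found on either strand in 20.8% of all promoters and in 3 of the 15, those of Ppargc1a, Ppara and Ppard. The nuclear receptor core site AGGTCA was in 16.3% of all promoters and in 3 of the 15, 2 start sites of Pparg and 1 of Rxra. The ERR element TCAAGGTCA, which contains it, was in none of the 15 and in 0.423% of all, and the PPAR element, 2 copies of AGGTCA in the same direction with 1 base between them, in none and in 0.0396%. The 250 bases before the start are shown for the genes with the larger ratios at 1 h, Ppargc1a and Ppara, and for Esrra, which had nearly the same signal on all arrays. They are written 5′ to 3′ in the direction of the gene, in lower case with the core TGACG or its reverse complement in capitals. The core starts at -49 in Ppargc1a, on the reverse strand, and at -222 in Ppara, counted from -1 at the base before the start.
Ppargc1a (GRCm38.p6, chr5:51567726-51567975, minus strand): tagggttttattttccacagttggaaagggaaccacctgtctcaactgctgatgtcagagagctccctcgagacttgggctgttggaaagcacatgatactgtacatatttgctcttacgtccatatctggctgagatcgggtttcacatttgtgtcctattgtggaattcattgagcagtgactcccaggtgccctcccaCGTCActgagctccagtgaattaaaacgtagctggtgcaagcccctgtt
Ppara (GRCm38.p6, chr15:85735526-85735775, plus strand): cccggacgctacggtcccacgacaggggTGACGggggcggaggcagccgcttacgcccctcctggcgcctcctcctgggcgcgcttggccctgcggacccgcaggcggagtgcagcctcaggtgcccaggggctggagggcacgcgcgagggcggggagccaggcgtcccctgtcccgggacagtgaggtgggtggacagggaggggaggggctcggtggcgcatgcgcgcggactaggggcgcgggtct
Esrra (GRCm38.p6, chr19:6921809-6922058, minus strand): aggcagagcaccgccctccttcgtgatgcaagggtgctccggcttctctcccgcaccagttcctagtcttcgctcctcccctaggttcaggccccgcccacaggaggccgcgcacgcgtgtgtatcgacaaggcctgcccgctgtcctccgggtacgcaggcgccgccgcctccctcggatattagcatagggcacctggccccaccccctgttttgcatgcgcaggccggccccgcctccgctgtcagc
A match of letters is a description and not a bound site, and with a share of 20.8% among all promoters such cores are no distinction of these genes. GC content differed, at 48.7% in the 300 bases around the start of Ppargc1a and 74.7% in those of Ppara.

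Ppargc1b, the close relative of Ppargc1a that encodes PGC-1β, was measured by 1 probe set (1449945_at). It read 840.6 at 0 h, 972.0 at 1 h and 1489.2 at 2 h. Its ratio to 0 h was thus small at 1 h and past the threshold at 2 h, at 1.16-fold and 1.77-fold. The log2 ratio was 0.21 at 1 h, 0.82 at 2 h and 0.62 for the second hour, and 74.6% of the rise on the log2 scale fell in the second hour. This was 1.8 times the spread at 1 h and 4.3 times at 2 h. Its call at 2 h ended after quantile normalization, where the log2 ratio was 0.78. Both PGC-1 genes thus had the larger step in the second hour, with the larger ratio in Ppargc1a at each time. The same log2 ratio at 2 h over 1 h placed Ppargc1b at rank 96 of 6896. The third gene of the family, Pprc1, which encodes a PGC-1-related coactivator, had signals of 245.4, 277.5 and 318.1 and did not pass at either time, with log2 ratios of 0.18 and 0.37.

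Ppara encodes PPARα, the receptor that controls genes of fatty acid oxidation. Its main probe set (1449051_at) read 217.1, 365.5 and 393.0 at 0, 1 and 2 h. In this probe set most of the difference was present at 1 h, and 12.2% of the log2 rise at 2 h fell in the second hour. The log2 ratio was 0.75 at 1 h, 0.86 at 2 h and 0.11 for 2 h over 1 h. A second probe set (1439675_at) read 209.1, 333.9 and 331.2, and the dimmest (1457721_at) read 103.1, 127.1 and 149.8. In the dimmest probe set 44.0% of the log2 rise fell in the second hour, and the second one had no rise in that hour. Their log2 ratios of 0.66 and 0.54 at 2 h were below the threshold, so that 1 of the 3 probe sets of Ppara passed it. The call at 2 h also ended when 32 was added to all signals (0.77) or when the median of the kept probe sets stood for the gene (0.66).

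Pparg, which encodes the master regulator of adipocyte differentiation, was measured by 1 probe set (1420715_a_at). It read 1232.6 at 0 h, 1624.7 at 1 h and 1953.6 at 2 h. Each array was above the one before, and neither ratio reached the threshold, with 1.32-fold at 1 h and 1.58-fold at 2 h. The log2 ratios of 0.40 and 0.66 were 3.7 and 3.9 times the spread of genes of that brightness, which is narrow. At 2 h 96.6% of the genes read had a lower log2 ratio. The values of Pparg at 2 h lay below the threshold in each of 9 other settings, at 0.62 to 0.69. Several of these settings, such as the other filters, could not change the ratio of a gene with 1 bright probe set.

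Rxra encodes RXRα, the partner with which PPARs bind DNA, and Esrra encodes ERRα, an orphan receptor that PGC-1α activates. The main probe set of Rxra (1454773_at) read 116.1, 118.0 and 103.6, just above the limit for a reading. Its log2 ratios were 0.02 at 1 h and -0.16 at 2 h, both within the spread of genes of like signal. Esrra (1460652_at) read 210.0, 213.0 and 209.9. The signal was nearly equal on the 3 arrays, with log2 ratios of 0.02 and -0.00069. Neither receptor thus differed between arrays by more than genes of its brightness do, while the coactivator genes were past the threshold at 2 h. The remaining probe sets of both genes were below 100 on all arrays. The first of Rxra read 45.8, 41.7 and 52.3 and the other was at 1.2 or less, and that of Esrra read 68.3, 38.9 and 61.9.

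Ppard and Esrrg, which encode PPARδ and ERRγ, were not read. The brighter probe set of Ppard had signals of 39.4, 50.2 and 37.1 and the other 2.2 at most. The 3 probe sets of Esrrg had highest signals of 19.2, 12.5 and 1.3. Most probe sets of the array lie in that range, the median signal being 12.7 to 13.6. At such signals no ratio is given, and a silent gene and an insensitive probe set cannot be told apart.

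Nrip1 encodes RIP140, a corepressor of the same receptors that restrains Ucp1 and oxidative genes in adipocytes. Its main probe set (1434384_at) read 345.4 at 0 h, 314.6 at 1 h and 274.1 at 2 h. Further kept probe sets read 284.2, 254.9 and 231.0 (1449089_at) and 136.2, 123.0 and 89.1 (1418469_at). Both were designed from the same transcript record. The dimmer one, 1418469_at, was below the signal limit at 2 h and was kept through the earlier arrays alone. The 3 kept probe sets are readings of the same RNA samples and not replicates. In all 3 the signal was lower on each later array, the opposite order to that of Ppargc1a. None passed the threshold, with log2 ratios of -0.13, -0.16 and -0.15 at 1 h and -0.33, -0.30 and -0.61 at 2 h. For the main probe set these were 0.9 and 1.2 times the spread in the downward direction, and 13.6% of all genes had a lower ratio at 2 h. A further 3 probe sets of Nrip1 had signals of 25.8 or less.

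**Figure D2:**
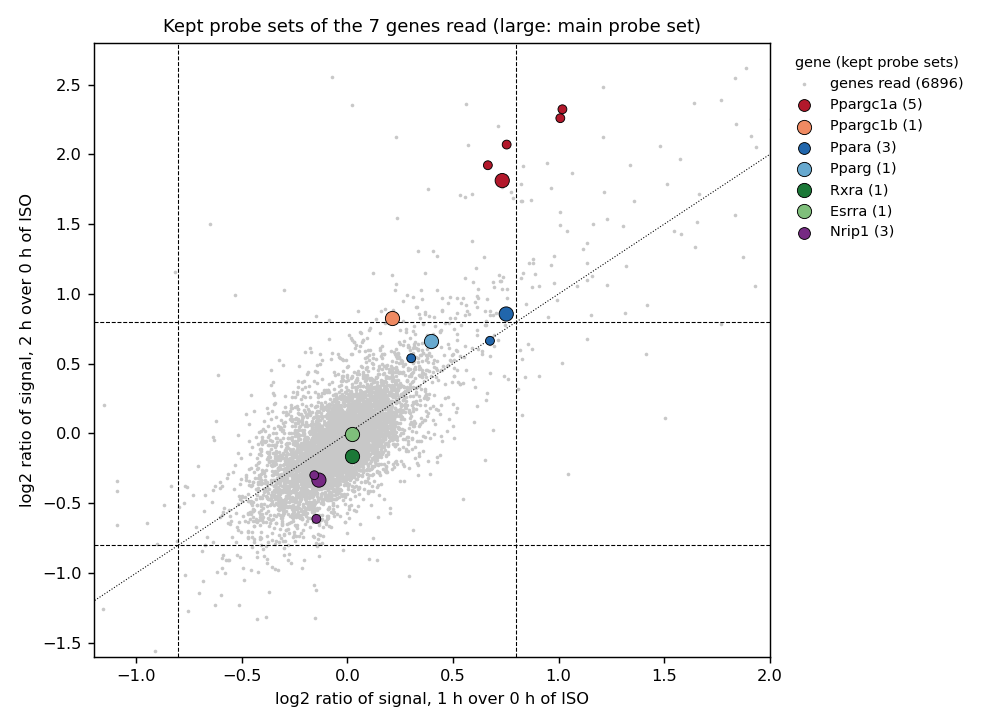
Log2 ratio of signal at 2 h over 0 h of ISO (vertical axis) against that at 1 h over 0 h (horizontal axis) for the 15 kept probe sets of the 7 genes, with the 6896 genes read in grey (36 lie outside the axes). Large points are main probe sets, dashed lines mark a log2 difference of 0.8 and points above the dotted diagonal were higher at 2 h than at 1 h; all 5 points of Ppargc1a lie well above it and the 3 of Nrip1 below.

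In order of the log2 ratio at 2 h the genes read were Ppargc1a, Ppara, Ppargc1b, Pparg, Esrra, Rxra and Nrip1. Between Ppara at 0.86, Ppargc1b at 0.82 and Pparg at 0.66 the steps were smaller than the spread of genes of like signal, 0.17 to 0.22, and their order is not settled. The same holds for the steps from Esrra at -0.001 to Rxra at -0.16 and from Rxra to Nrip1 at -0.33, with spreads of 0.24 to 0.30. At 1 h Ppara at 0.75 and Ppargc1a at 0.73 were highest, followed by Pparg, Ppargc1b, Rxra, Esrra and Nrip1. The order of the first pair is not settled, since they differed by less than the spread and changed places with the median over kept probe sets (0.67 for Ppara and 0.75 for Ppargc1a), and that of Rxra and Esrra, both at 0.02, is not settled either. The steps at 1 h from Ppargc1b to Rxra and from Esrra to Nrip1 were also within the wider spread of each pair, 0.21 and 0.17. Signals of different probe sets depend on their probes, so levels were not compared between genes.

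The genes whose course was most like that of Ppargc1a were Nfkbiz, Uap1, Socs2, Sash1 and Rnf217. They had the smallest distance to it over the log2 ratios at 1 and 2 h, on 3 arrays and among 6165 genes with signals of at least 100 on all of them. Nfkbiz, an atypical IκB protein, was nearest at a distance of 0.09, with signals of 190.8, 326.3 and 633.9. Uap1, which makes the sugar nucleotide UDP-GlcNAc, followed at 0.14 and had signals of 556.4, 991.4 and 2098.1. Socs2, an inhibitor of cytokine signalling, was at 0.25. Sash1 and the ubiquitin ligase gene Rnf217 were at 0.42 and 0.46, with signals from 990.6 to 2791.6 and from 203.2 to 527.3. A likeness over so few arrays is a description.

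Related genes from 7 lists were read beside the 9 genes, and outside the PPAR targets none passed the threshold at 1 or 2 h. With 1.58% of all genes higher at 1 h and 2.73% at 2 h, a count of 0 in lists of 5 to 17 genes is near the share of all genes and is no result about a list. None of the 17 nuclear receptor coactivators and corepressors read was past the threshold at 1 or 2 h, with median log2 ratios of -0.08 and -0.10. Prdm16 (-0.63) and the acetyltransferase gene Ep300 (-0.50) had the lowest values at 2 h, and Sirt1, which deacetylates PGC-1α, was at 0.13. Prdm16 reached 100 at 0 h alone, so it was read through the array on which it was highest. None of 5 relatives of the PGC-1 and receptor genes passed. Among these Rxrb, a further partner of the PPARs, read 230.3, 143.7 and 157.1, and Nr2f2, an orphan receptor, was at -0.66 at 2 h. None of 16 regulators of PGC-1α passed. Creb1, the transcription factor of cAMP signalling, was at -0.18 at 2 h, the AMP-activated kinase gene Prkaa1 at 0.57 and Foxo1 at 0.53, whereas Crtc1, Crtc2 and Crtc3, coactivators of CREB, had no probe set at 100 or above.

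The partner factors and targets through which PGC-1 is known to act on mitochondria were read in the same way, and their counts of 0 are likewise near the share of all genes. None of 11 partner factors and regulators of mitochondrial biogenesis passed at either time, and the median log2 ratio of -0.14 at 2 h was below that of all genes, -0.07. Gabpa, Tfam and Tfb2m, a partner of PGC-1 and a pair of mitochondrial transcription factors, were at 0.10, -0.16 and -0.36 at 2 h. Nrf1, the other partner factor, was not read. None of 16 ERR targets of mitochondrial energy metabolism passed, with a median of -0.09 at 2 h. Vegfa, an angiogenic factor, was the highest of them at 0.65 and 0.77, and Cycs and Atp5b, of the respiratory chain and the ATP synthase, were at 0.00 and 0.06 at 2 h.

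Among the PPAR targets 3 genes were past the threshold at both times. Over all genes 1.58% were higher at 1 h and 2.73% at 2 h, and so few genes are no result about a list. Of 14 PPAR targets of fatty acid oxidation, Pdk4 and Fgf21 were higher at both times, with none lower, and the median log2 ratios were 0.01 and -0.01. Pdk4, the kinase that inhibits pyruvate dehydrogenase, had signals of 620.6, 1729.7 and 2587.5. Fgf21, a secreted factor, was at 43.3, 123.6 and 149.7, so it was read through the later arrays alone, and with signals below 100 set to 100 only Pdk4 was past the threshold. The enzymes of the oxidation pathway itself, such as Cpt2 (-0.25), Acadm (-0.04), Hadha (-0.06), Acadl (0.02) and Cpt1a (0.03), did not pass at 2 h. In the list as a whole 7 of the 14 genes were above 0 at 2 h. Of 12 PPARγ targets of adipocytes 1 was higher at both times and none lower, with a median of -0.02 at 2 h. It was Pck1, an enzyme of glyceroneogenesis, with signals of 137.3, 702.5 and 976.2. The main probe set of Fabp4 was at -0.08 at 2 h, but the highest of its 4 kept probe sets was past the threshold, at 0.92. In other settings the count of this list higher at 2 h was 1 to 2, and its median at 2 h -0.04 to 0.125.

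**Figure D3:**
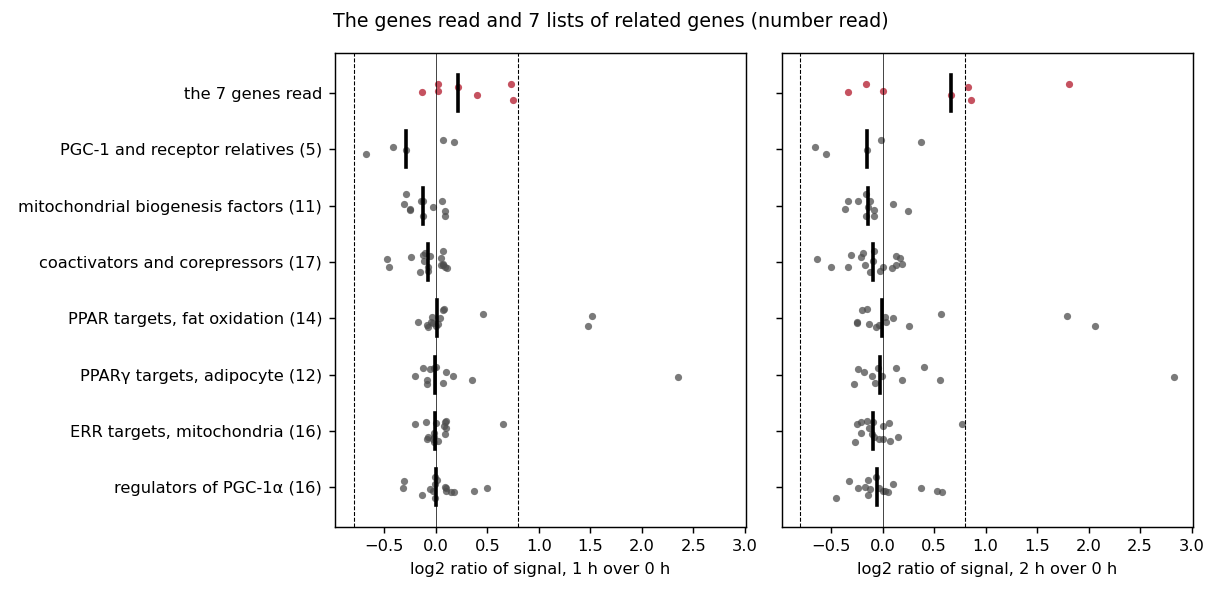
Log2 ratio of signal (horizontal axes) at 1 h over 0 h (left) and 2 h over 0 h of ISO (right) for the 7 genes read and for the genes read of 7 related lists, each point being a gene. Each time has 1 array, a black bar gives the median of a list and the dashed lines stand at a log2 difference of 0.8; the points past it at 2 h are Ppargc1a, Ppargc1b and Ppara in the top row, Pdk4 and Fgf21 among targets of fatty acid oxidation and Pck1 among adipocyte targets of PPARγ.

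The ratios of the 7 genes moved little with the processing. In the 10 other settings that give a log2 ratio, that of Ppargc1a was 1.71 to 2.07 at 2 h and stayed past the threshold in all. Those of Ppargc1b were 0.78 to 0.85, past it in 9, and those of Ppara 0.66 to 0.90, past it in 8. The ratio of Nrip1 at 2 h lay between -0.33 and -0.29, and that of Esrra between -0.001 and 0.05.

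**Figure D4:**
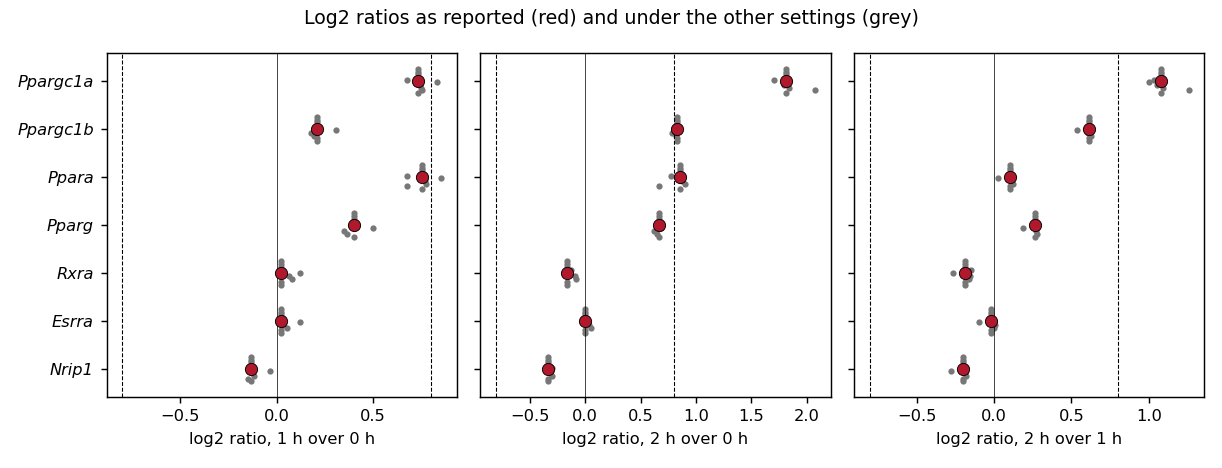
Log2 ratio of signal (horizontal axes) for 1 h over 0 h, 2 h over 0 h and 2 h over 1 h of ISO, for each gene read (rows). Red points are the values reported and grey points those under the other filters, scalings and choices of probe set; dashed lines mark a log2 difference of 0.8, and at 2 h the grey points of Ppargc1b and Ppara lie on both sides of it.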

How the data were processed

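Labelled RNA was hybridized to Affymetrix mouse arrays, and the authors computed MAS5 signals, a linear intensity deposited for each probe set, with a trimmed mean of 100.0 on every array (2% cut from each end). The submitters' processing notes name MAS5. The authors' filter on absent calls and low values is not applied in the deposited table. Probe sets were named through the archive's array annotation. A single symbol was given to 34958 of the 45101, while 932 with several were left out and 9211 stayed without a name. Symbols of 34754 were matched by gene identifier to RefSeq (GRCm38.p6), and none changed.

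Log2 ratios were taken with pandas 2.3.3 and numpy 2.4.6 (Python 3.11.15) after signals of 0 had been set to 0.1. A probe set was kept if it reached 100 on any array. The spread is the scaled median absolute deviation in 20 bins of mean signal. The calculation was tested on simulated data. The changes planted there were larger than the threshold and lay in genes with a signal of at least 200 at 0 h. The test thus does not bear on ratios close to the threshold or on dimmer probe sets. The genes, the lists and the settings were chosen with earlier results of these data known. Named genes were the 9 with all probe sets, list genes past the threshold (up to 4 a list) and the 5 nearest to Ppargc1a. Other list genes were chosen after their values were seen. Alternatives were other filters (100 on all 3 arrays, 200 on 1 or more, none), signals below 100 set to 100, 32 added, the same median, quantile normalization, cyclic loess (limma 3.58.1 in R 4.3.3), other choices of probe set and a threshold of 2-fold. All value columns were used. Figures were drawn with matplotlib 3.10.9.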

Additional observations from a re-analysis of the deposited data

Results flagged for a closer look

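Rxra and Esrra had log2 ratios to 0 h of opposite sign at the later times. Rxra was at 0.023 at 1 h and -0.16 at 2 h, and Esrra at 0.020 and -0.00069. All 4 values are smaller than the spread of log2 ratios among genes of like signal, there is 1 array per time point, and the difference between 1 and 2 h was not tested.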

How the results depend on the processing

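No paired analysis was possible because each time point had 1 array, and no replicate could be left out. Of 72 counts of the 7 genes past the threshold under other settings, 69 were equal to the reported count or within 1.5 times of it. The count of genes higher at 1 h, 0 as reported, was 2 with each array scaled to the same median signal (Ppara and Ppargc1a) and 1 when any kept probe set could pass (Ppargc1a). The count of genes higher at 2 h, 3 as reported, was 1 with the threshold of 2-fold (Ppargc1a). Of 204 log2 ratios of single genes under other settings, 202 moved by less than the spread of genes of like signal and no called ratio changed sign. The other 2 were those of Ppargc1a with the median over kept probe sets, at 2.07 for 2 h against 0 h and 1.26 for the second hour. Many of the 204 could not move, since the other filters left the main probe set and its signals as they were. Among the related lists, 297 of 308 counts and 138 of 140 medians moved by no more than these limits. No scaling moved the median of all genes by over 0.1. What limits these results is 1 array per time point, and dim probe sets have a wider spread than bright ones. At 1 h the spread was 0.165 over all genes, 0.21 for genes of the signal of Rxra and 0.375 in the dimmest bin.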
